A study of Mus musculus with 30 samples.

Results

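Glycolysis and the transcriptional response to low oxygen were followed through 35 mouse genes, taken by symbol from the 55487 genes counted in RNA sequencing libraries of short-term lung organoid cultures. The 35 comprised 3 transporters of glucose and lactate, 17 glycolytic enzymes including lactate dehydrogenase, 4 regulatory kinases, 2 carbonic anhydrases and 9 other targets of the hypoxia response. Every one of them was above the minimum mean raw count of 1 in both cell fractions, so all 35 were tested in every comparison. Primary Epcam+ epithelial cells, depleted of CD31+ and CD45+ cells and taken from the lungs of adult wild type C57BL/6J mice, were grown in Matrigel with an equal number of CCL206 cells, a line of mouse lung fibroblasts that mitomycin C had kept from dividing. The medium of all groups held the ROCK inhibitor Y-27632, and every culture received its treatment for 72 hours. The treatments were vehicle control, TGF-β at 2 ng/ml, the IPF cocktail (IPFc, made of TGF-β, TNFα, CCL2, TSLP and the interleukins IL-33, IL-13, IL-8, IL-4 and IL-1β) and the exacerbation cocktail (EC, made of IL-6, IL-8, IL-1β and TNFα). For mouse cells the paper names KC in place of IL-8 in EC, and it does not describe IPFc. The cultures were then separated with Epcam microbeads into an epithelial and a fibroblast fraction. Cells of 4 mice were used, and 15 libraries of each fraction were analysed, with 4 per group except 3 for epithelial TGF-β (mouse 1 not analysed here) and 3 for fibroblast vehicle (mouse 2 not analysed here). All fibroblast libraries came from a single cell line, so that for them the mouse number named the epithelial cells they had been cultured with.

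Glycolysis splits glucose into pyruvate, and lactate dehydrogenase reduces pyruvate to lactate, which leaves the cell through monocarboxylate transporters. Under low oxygen, or when inflammatory signals raise its level, the transcription factor HIF-1 binds a short DNA element at genes of glucose uptake, glycolysis and lactate export and increases their transcription. Pyruvate dehydrogenase kinases, which are among its targets, keep pyruvate away from the mitochondria. The prolyl hydroxylases of the EGLN family mark HIF-α subunits for degradation when oxygen is present, and Egln3 is itself induced by HIF. In the lung, airway and alveolar epithelial cells are bathed in oxygen-rich air, and a shift to aerobic glycolysis is known from activated myofibroblasts and from inflamed tissue.

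The core of the HIF binding element is ACGTG or GCGTG, and the sequence before the transcription start was read for the members to show where these letters lie. RefSeq promoter sequences, in the GRCm38.p6 build, matched 34 of the 35 genes, with Ndrg1 unmatched. Within the 250 bases before the start, either of these cores (or its reverse complement CACGT or CACGC) was found at 30 of the 34 genes, or 88.2%, against 11226 of all 27025 genes, or 41.5%. Counted by promoter, 38 of 47 members' promoters (80.9%) and 12679 of all 32851 (38.6%) held such a core. The members' promoters had a median GC content of 61.6% against 52.4% for all promoters, and the part of base composition in the difference was not tested. A palindromic CACGTG counts once on each strand. Gpi1, Tpi1, Eno2 and Car12 were the 4 genes with no core in this window. The sequences below belong to the 3 members that rose most with EC in epithelial libraries, as described next (Slc16a3, Egln3, Bnip3), to the main glucose transporter and central enzymes (Slc2a1, Pgk1, Ldha) and, as a promoter with no core, to Car12. Each is the 250 bases before the start, 5′ to 3′ on the strand of the gene, with the letters of the cores in capitals. For Ldha the listed promoter with the most matches was picked, and another (chr7:46846832-46847081) held 1 match.

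Slc16a3 (chr11:120948817-120949066, plus strand, cores 27 and 14 bases before the start): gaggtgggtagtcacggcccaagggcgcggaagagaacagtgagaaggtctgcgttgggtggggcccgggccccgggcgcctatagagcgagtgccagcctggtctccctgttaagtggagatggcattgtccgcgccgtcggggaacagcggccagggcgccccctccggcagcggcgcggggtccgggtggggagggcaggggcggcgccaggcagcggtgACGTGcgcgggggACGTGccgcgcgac

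Egln3 (chr12:54203875-54204124, minus strand, core 229 bases before the start): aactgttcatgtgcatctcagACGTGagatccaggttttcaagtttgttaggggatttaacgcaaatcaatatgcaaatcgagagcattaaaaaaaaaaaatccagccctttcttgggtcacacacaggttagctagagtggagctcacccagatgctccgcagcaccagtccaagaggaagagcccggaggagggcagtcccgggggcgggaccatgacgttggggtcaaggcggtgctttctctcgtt

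Bnip3 (chr7:138909507-138909756, minus strand, 5 cores between 117 and 35 bases before the start): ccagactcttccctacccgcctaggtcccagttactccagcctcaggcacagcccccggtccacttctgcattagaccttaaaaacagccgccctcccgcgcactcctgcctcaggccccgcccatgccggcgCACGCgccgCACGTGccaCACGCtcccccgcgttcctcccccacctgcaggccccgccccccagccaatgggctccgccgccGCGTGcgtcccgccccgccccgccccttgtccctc

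Slc2a1 (chr4:119108495-119108744, plus strand, cores 61 and 36 bases before the start): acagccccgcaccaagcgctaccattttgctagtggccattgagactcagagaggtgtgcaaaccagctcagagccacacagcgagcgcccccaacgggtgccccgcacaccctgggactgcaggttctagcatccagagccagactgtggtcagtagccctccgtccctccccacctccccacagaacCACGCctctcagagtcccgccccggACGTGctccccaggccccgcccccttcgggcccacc

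Pgk1 (chrX:106186850-106187099, plus strand, cores 150 and 131 bases before the start): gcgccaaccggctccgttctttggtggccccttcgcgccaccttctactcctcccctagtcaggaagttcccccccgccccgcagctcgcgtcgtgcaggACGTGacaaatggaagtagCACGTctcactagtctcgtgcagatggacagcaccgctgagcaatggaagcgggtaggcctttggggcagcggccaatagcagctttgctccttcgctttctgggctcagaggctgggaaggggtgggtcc

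Ldha (chr7:46845554-46845803, plus strand, 5 matches between 145 and 34 bases before the start): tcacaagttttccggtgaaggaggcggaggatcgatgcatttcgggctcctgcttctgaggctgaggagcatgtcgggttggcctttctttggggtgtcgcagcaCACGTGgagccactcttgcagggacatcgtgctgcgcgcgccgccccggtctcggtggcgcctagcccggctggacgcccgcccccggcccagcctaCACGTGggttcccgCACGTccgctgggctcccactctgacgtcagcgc

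Car12 (chr9:66713436-66713685, plus strand, no core): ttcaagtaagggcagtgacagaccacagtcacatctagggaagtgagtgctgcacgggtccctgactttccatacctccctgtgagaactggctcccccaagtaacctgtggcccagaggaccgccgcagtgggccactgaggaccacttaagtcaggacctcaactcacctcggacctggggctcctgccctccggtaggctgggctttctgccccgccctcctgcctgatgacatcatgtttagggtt

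A match to these letters is a description of the sequence and does not show that HIF bound there in these cells.

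The libraries held between 5113828 and 20317181 counted reads. Neither fraction was pure. From the markers of the opposite fraction, epithelial RNA was estimated to make up 17.4 to 29.4% of the fibroblast vehicle libraries, 37.0 to 57.3% of the fibroblast EC libraries, 11.3 to 31.9% with IPFc and 0.946 to 3.71% with TGF-β. By the same estimate, fibroblast RNA made up 4.10 to 9.09% of the epithelial vehicle libraries, 5.25 to 15.4% with EC, 4.79 to 16.0% with IPFc and 25.9 to 31.0% with TGF-β. The estimate counts marker reads as RNA of the other fraction. Whether cells of a fraction expressed such markers themselves under a treatment was not tested, and the subtractions below share this limit. With TGF-β, 23 of 24 fibroblast markers were higher in the epithelial fraction. Of 22 epithelial markers there, 15 were lower and 3 higher. Of all genes in that fraction, 21% were called higher and 20.1% lower. In the fibroblast fraction all 22 epithelial markers were lower with TGF-β, beside 12.8% of all genes. The summed level of 18 immune cell markers was 301 to 337 CPM in epithelial vehicle and 452 to 580 CPM in epithelial EC libraries. In the fibroblast fraction it was 127 to 166 CPM with vehicle and 243 to 342 CPM with EC. Most of the sum came from Cd14 (109.8 to 479.9 CPM over the epithelial libraries) and Lyz2 (12.9 to 116 CPM), and Cd68 stood at 4.46 to 8.19 CPM there. The other listed markers were each at most 2.03 CPM in that fraction, with Ptprc, the pan-leukocyte gene, at most 0.343 CPM and Cd3g and Ms4a1 at 0. In these bulk libraries, fewer cells of a type and less RNA per cell cannot be told apart.

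**Figure D1:**
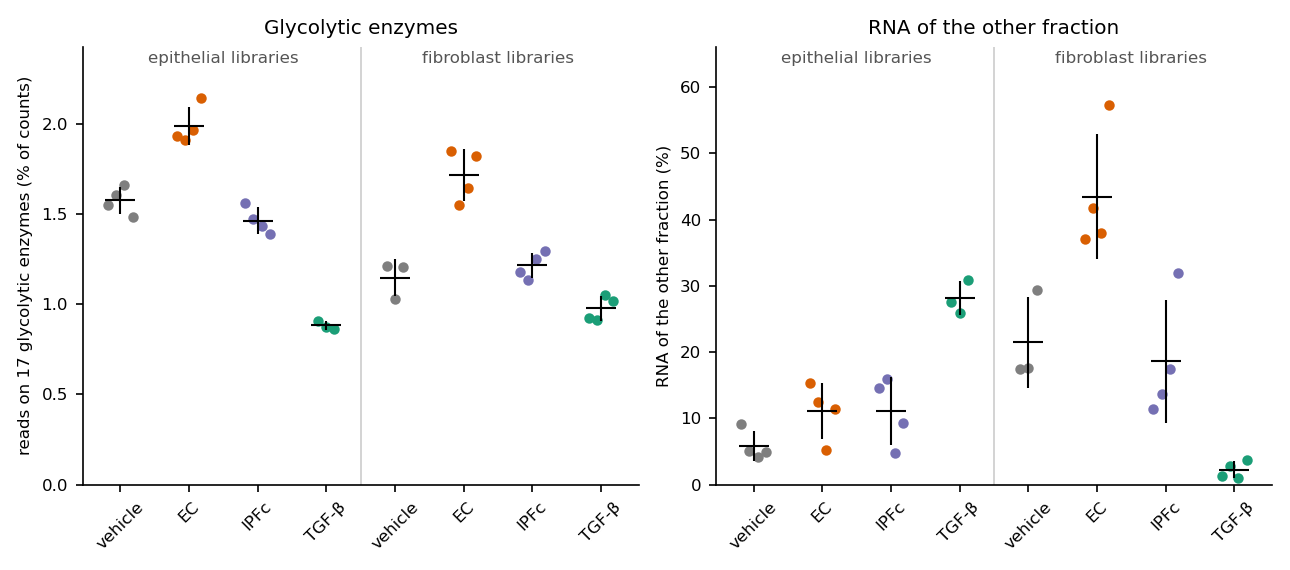
Left, the share of all counted reads that fell on the 17 glycolytic enzymes, and right, the estimated share of RNA from the other fraction, both in percent on axes that start at 0. Each point is a library, the dashes are group means and the bars are standard deviations (3 or 4 libraries per group). On the left the EC means are highest and the TGF-β means lowest in both fractions, and on the right fibroblast EC and epithelial TGF-β libraries lie above the vehicle libraries of their fraction.

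The 17 glycolytic enzymes together took 1.58 ± 0.0757% of all counted reads in epithelial vehicle libraries, 1.99 ± 0.105% with EC, 1.46 ± 0.0740% with IPFc and 0.883 ± 0.0239% with TGF-β (mean ± SD, n = 4, 4, 4 and 3). In the fibroblast fraction the same share was 1.15 ± 0.104% with vehicle, 1.72 ± 0.143% with EC, 1.22 ± 0.0701% with IPFc and 0.977 ± 0.0694% with TGF-β (n = 3, 4, 4 and 4). In both fractions every EC library had a larger share than every vehicle library. The lowest shares were those of the epithelial TGF-β libraries. These shares are descriptions, and the tests below were run gene by gene.

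The first comparison asked how EC, which models the cytokines of a COPD exacerbation, changed these genes in epithelial cells. EC raised 19 of the 35 genes in the epithelial fraction, including all 3 transporters, 11 of the 17 glycolytic enzymes, 1 of 4 regulatory kinases and 4 of 9 other hypoxia genes. The other 16 did not pass the test. The background was 1.96% of 18024 genes called higher and 2.44% called lower, and the median log2 fold change was 0.40 over the members and 0.00 over all genes. The strongest change was in Slc16a3, which encodes the lactate exporter MCT4. A gene was called at an adjusted p under 0.05 in edgeR's quasi-likelihood test with the mouse as a block and Benjamini-Hochberg adjustment over all genes, and levels are CPM, the read count of a gene scaled to the TMM-normalised library size.

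Slc16a3 was at 9.71, 9.79, 12.6 and 10.1 CPM in the epithelial vehicle libraries of mice 1 to 4 and at 38.8, 41.2, 72.4 and 49.2 CPM with EC. All 4 EC libraries lay well above all vehicle libraries, with mouse 3 highest in both groups (4.72-fold, log2 fold change 2.24, standard error 0.14, adjusted p = 1.38e-09, higher in 4 of 4 mice). Egln3, the HIF prolyl hydroxylase, measured 9.23, 8.66, 9.25 and 8.29 CPM with vehicle and 22.0, 23.2, 21.4 and 24.5 CPM with EC. The groups did not overlap and varied little within themselves (2.58-fold, log2 fold change 1.36, standard error 0.13, adjusted p = 7.87e-07). Bnip3, a mitophagy receptor, measured 32.7, 33.4, 32.2 and 51.1 CPM with vehicle and 59.3, 51.4, 67.8 and 143 CPM with EC. Mouse 4 was highest in both groups, and its EC library stood far above the other 3, although the lowest EC value was only just above the highest vehicle value (log2 fold change 1.03, standard error 0.16, adjusted p = 0.000229). With that EC library left out, the log2 fold change of Bnip3 was 0.80 (adjusted p = 0.000244).

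Among the transporters, Slc2a1, the main glucose importer GLUT1, rose from 196 ± 14.4 to 262 ± 9.27 CPM (mean ± SD, n = 4 each, log2 fold change 0.42, standard error 0.08, adjusted p = 0.00145). Slc16a1, which encodes the lactate transporter MCT1, rose by 0.40 on the log2 scale (adjusted p = 0.00991). Both were higher with EC in 4 of 4 mice.

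The upper glycolytic enzymes that rose were Hk2, Gpi1, Pfkl, Pfkp, Aldoa and Tpi1, with log2 fold changes from 0.29 for glucose-6-phosphate isomerase Gpi1 to 0.57 for triosephosphate isomerase Tpi1. In the lower part of the pathway Pgk1, Pgam1, Eno1, Eno2 and Ldha rose. Phosphoglycerate kinase Pgk1 went from 813 ± 48.0 to 1269.6 ± 231 CPM (log2 fold change 0.64, adjusted p = 0.000133). Lactate dehydrogenase A, one of the most abundant members, went from 2828 ± 69.1 to 4168 ± 769 CPM (log2 fold change 0.55, adjusted p = 0.00116). Eno2 rose by 0.88 on the log2 scale, though its EC library of mouse 3, at 13.6 CPM, lay within the vehicle range of 10.9 to 20.1 CPM. Fibroblast vehicle libraries held far more Eno2 (246, 224 and 286 CPM). The EC library of mouse 3 had the lowest estimated share of fibroblast RNA among the epithelial EC libraries, at 5.25%. After subtraction of fibroblast RNA the call of Eno2 was lost, and the part of that RNA in its rise was not tested further. Gapdh and Pkm, the enzymes before Pgk1 and after Eno1 in the pathway, did not pass the test, with log2 fold changes of 0.28 ± 0.08 (± standard error, adjusted p = 0.0632) and 0.21 ± 0.08 (adjusted p = 0.200). The other enzymes below the threshold were Hk1, Pfkm, Aldoc and Ldhb, and Hk1 had a log2 fold change of 0.01 ± 0.08.

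Of the regulatory kinases, Pdk1, which inhibits pyruvate dehydrogenase, rose from 47.9 ± 3.69 to 82.7 ± 9.91 CPM (log2 fold change 0.79, standard error 0.09, adjusted p = 1.53e-05), and its EC and vehicle libraries did not overlap. Pfkfb3, which makes the activator of phosphofructokinase, did not pass (0.47 ± 0.14, adjusted p = 0.0680), nor did Pfkfb4 and Pdk3. Of the remaining hypoxia genes P4ha1, a collagen prolyl hydroxylase subunit, and Ero1a, an oxidase of the endoplasmic reticulum, rose by 0.42 and 0.55 on the log2 scale. Adm, which encodes the vasoactive peptide adrenomedullin, stood at 1.86 to 2.91 CPM with vehicle and 2.15 to 8.41 CPM with EC and did not pass (0.86 ± 0.26, adjusted p = 0.0688). Car9, Car12, Ankrd37, Ndrg1, P4ha2 and Higd1a did not pass either. Leaving out mouse 1 or mouse 2 from the fit reduced the number of members called from 19 to 11 and 12, and subtracting the estimated fibroblast RNA left 9, namely Slc16a3, Hk2, Pfkl, Pfkp, Tpi1, Pgk1, Ldha, Pdk1 and Egln3. The shares of all genes called in these fits were not computed, so a loss of calls over all genes cannot be told from one among the members. The members' median log2 fold change after subtraction was 0.35, against 0.40 without it. The immune marker sum, carried mainly by Cd14, was also higher in EC libraries, with 1 of 9 tested markers called, and its part in the result was not tested.

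**Figure D2:**
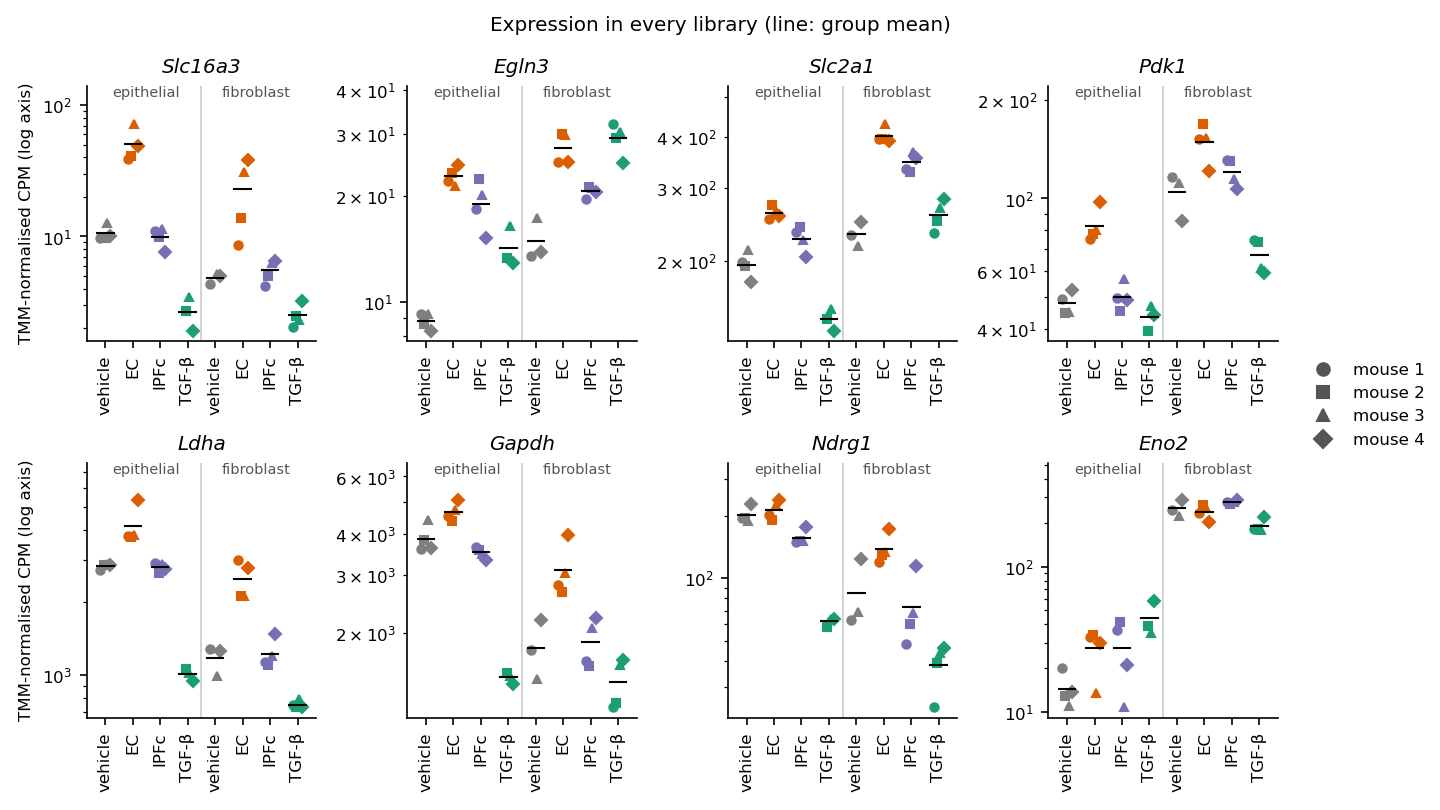
TMM-normalised CPM of 8 members in every library on logarithmic axes, epithelial groups left and fibroblast groups right of the grey line, with the mouse as marker shape and the group mean as a black line. Slc16a3 is highest in both EC groups and lowest in both TGF-β groups, Egln3 lies above vehicle under all 3 treatments in both fractions, and Eno2 is lower in every epithelial than in every fibroblast library.

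The same comparison in the fibroblast fraction gave 18 of 35 members called higher with EC, while the other 17 did not pass (background 4.28% of 18048 genes higher and 2.84% lower). The median log2 fold change was 0.62 over the members and -0.02 over all genes. All 3 transporters, 8 of 17 enzymes, 1 of 4 kinases and 6 of 9 other hypoxia genes rose. Slc16a3 measured 4.37, 5.19 and 4.98 CPM in the vehicle libraries of mice 1, 3 and 4 and 8.69, 13.9, 30.8 and 37.9 CPM in the EC libraries of mice 1 to 4. All EC values lay above all vehicle values, but they ranged widely, with mice 3 and 4 high and mouse 1 low (4.62-fold, log2 fold change 2.21, standard error 0.29, adjusted p = 0.000336). Slc16a1 measured 69.4, 64.9 and 55.1 CPM with vehicle and 212, 158, 116 and 127 CPM with EC. Here mouse 1 was the highest EC library, and the groups did not overlap (log2 fold change 1.18, standard error 0.15, adjusted p = 0.000312). Ankrd37, an ankyrin repeat gene induced by HIF, measured 6.93, 8.25 and 6.31 CPM with vehicle and 21.1, 12.2, 14.96 and 13.2 CPM with EC. All EC libraries were above the vehicle range, with mouse 1 highest (log2 fold change 1.17, standard error 0.24, adjusted p = 0.00680).

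Slc2a1 rose from 233 ± 16.2 (n = 3) to 402 ± 18.5 CPM (n = 4, log2 fold change 0.81, standard error 0.11, adjusted p = 0.000488). Of the enzymes, Ldha rose most, by 1.14 on the log2 scale (adjusted p = 0.000227), followed by Gapdh (0.85), Eno1 (0.78), Pgk1 (0.75), Pfkl (0.71), Tpi1 (0.67), pyruvate kinase Pkm (0.62) and Pgam1 (0.61). Higd1a, a mitochondrial protein gene induced by hypoxia, rose by 1.05, Egln3 by 0.86, Ndrg1 by 0.78, Ero1a by 0.60, Pdk1 by 0.46 and P4ha2 by 0.41 on the same scale. Bnip3 did not pass (0.73 ± 0.23, adjusted p = 0.0659), with 317, 131, 134 and 117 CPM in the EC libraries, where mouse 1 stood far above the other 3.

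These rises went with a larger estimated share of epithelial RNA in the fibroblast EC libraries, where 13 of 22 epithelial markers were also higher. After the estimated epithelial RNA was subtracted, Slc2a1 alone of the 35 passed (log2 fold change 1.06, adjusted p = 0.00641), and that of Slc16a3 was 0.62 (adjusted p = 0.967). The members' median log2 fold change was then 0.59, against 0.62 without the subtraction, and that of all genes -0.10. Single members moved differently. Egln3 was at 0.85 (adjusted p = 0.12) and Pgk1 at 0.78 (adjusted p = 0.270), while Ldha went from 1.14 to 0.43 (adjusted p = 0.963). Without mouse 4 the number of members called fell from 18 to 7, without mouse 3 it was 10, and the immune marker sum was higher in these EC libraries too. The shares of all genes called after subtraction or without a mouse were not computed, so these falls are no result about the members. The part of epithelial RNA or immune markers in the rises was not tested further.

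Called higher with EC in both fractions were 12 genes, which is 63.2% of the epithelial and 66.7% of the fibroblast list. They were Slc2a1, Slc16a1, Slc16a3, Pfkl, Tpi1, Pgk1, Pgam1, Eno1, Ldha, Pdk1, Egln3 and Ero1a. The fractions were sorted from the same cultures and each held RNA of the other, so this overlap is not that of independent samples. The overlap over all genes was not computed. Of all genes, 1.96% were called higher with EC in epithelial and 4.28% in fibroblast libraries. The test of the difference between the fractions' responses called 7 of 35 members, against 4.59% of 18364 genes. The epithelial response was the smaller one for Slc16a1 (difference of log2 fold changes -0.79), Gapdh (-0.58), Ldha (-0.59), Ndrg1 (-0.70) and Higd1a (-0.80), and the larger one for Eno2 (0.96) and P4ha1 (0.46). For Slc16a3 the difference was 0.00 (adjusted p = 1.00), with log2 fold changes of 2.24 ± 0.14 in epithelial and 2.21 ± 0.29 in fibroblast libraries. With any of the 4 mice left out 1 or 2 members passed this test, and with the other fraction subtracted none did.

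**Figure D3:**
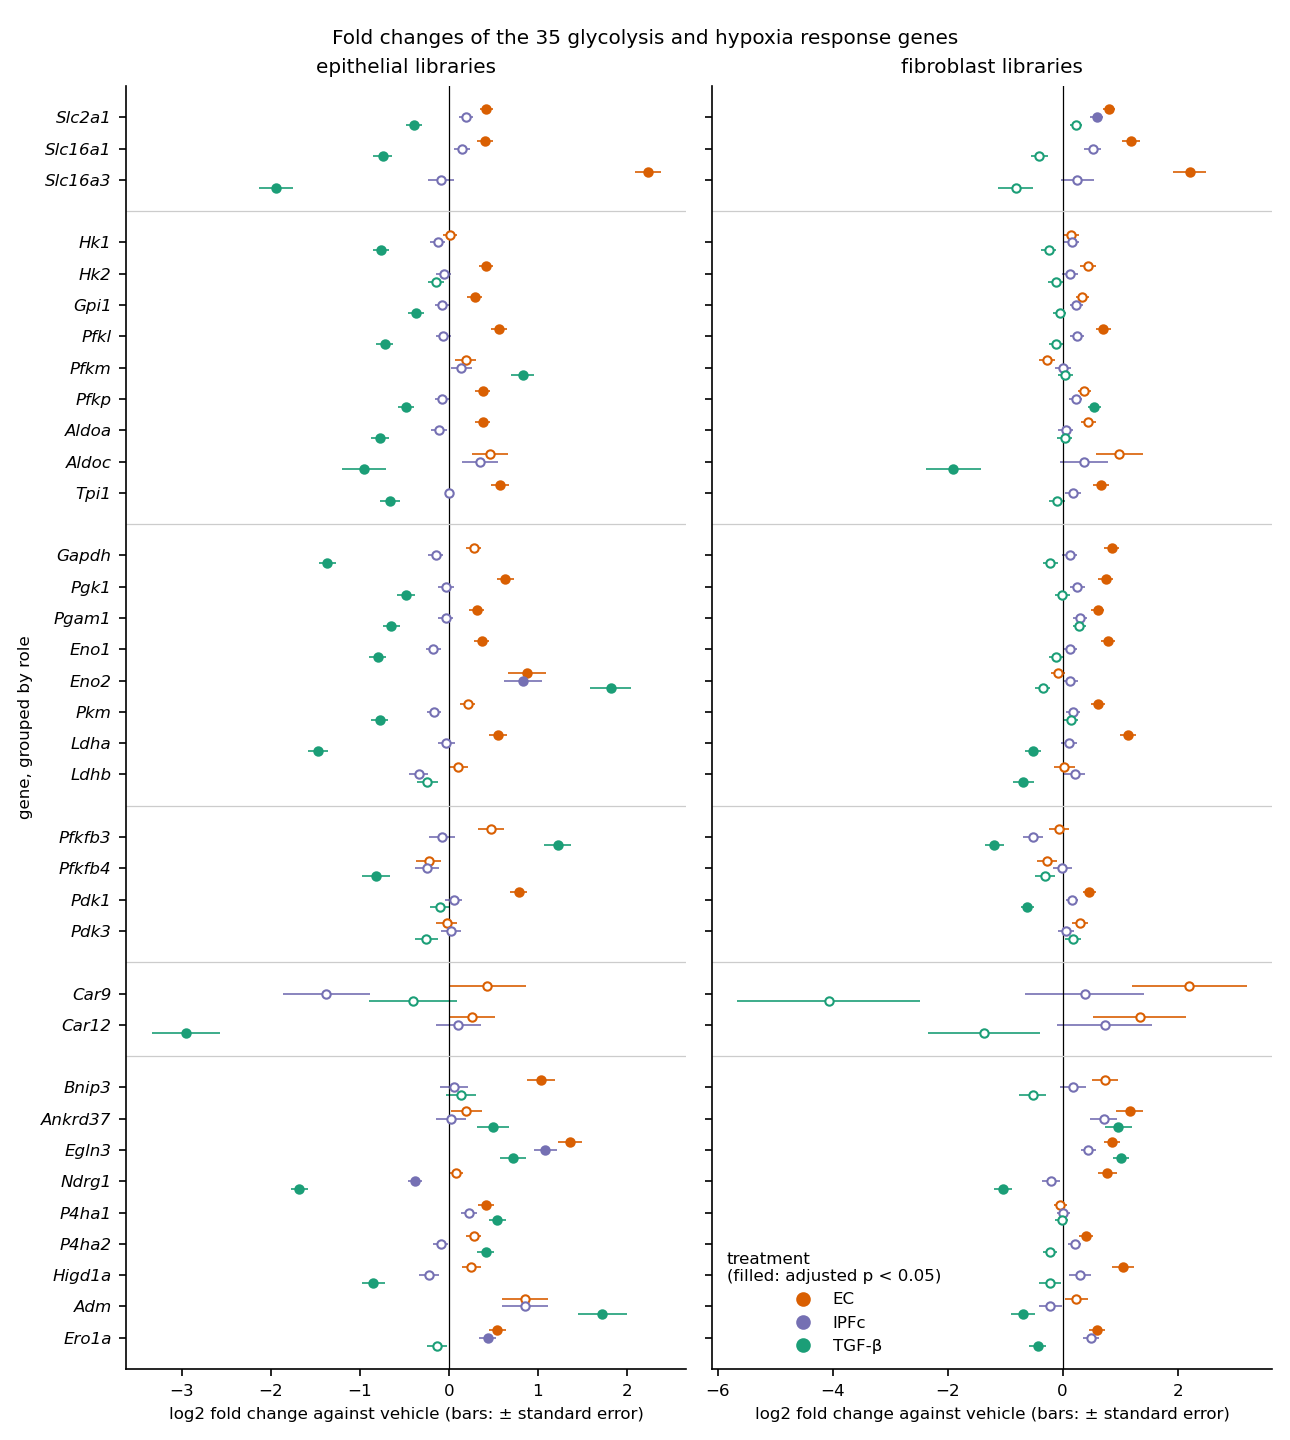
Log2 fold change against vehicle of the 35 genes in epithelial (left) and fibroblast libraries (right) for EC, IPFc and TGF-β, with bars of ± 1 standard error and filled symbols for an adjusted p under 0.05 (no bar for Tpi1 with IPFc in epithelial libraries, whose change was too near 0 for a standard error). EC points lie mostly right of 0 in both fractions, and TGF-β points in the epithelial panel spread from -2.95 for Car12 to 1.82 for Eno2.

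IPFc, which holds several of the same cytokines together with TGF-β and type 2 factors, changed few of these genes. In the epithelial fraction 3 members were called higher and 1 lower, against a background of 2.57% and 1.53% of 18024 genes. The median log2 fold change was -0.03 over the members and 0.01 over all genes. Egln3 measured 18.3, 22.4, 20.1 and 15.2 CPM with IPFc, above every vehicle value given before (2.12-fold, log2 fold change 1.09, standard error 0.13, adjusted p = 2.60e-05). Eno2, the neuronal enolase, measured 20.1, 12.8, 10.9 and 13.6 CPM with vehicle and 36.5, 41.8, 10.8 and 21.1 CPM with IPFc. Mouse 3 had nearly the same value in both groups, which overlapped (log2 fold change 0.83, standard error 0.21, adjusted p = 0.0267, higher in 3 of 4 mice). Ero1a measured 69.8, 72.6, 58.6 and 98.7 CPM with vehicle and 94.4, 92.3, 104 and 114 CPM with IPFc, with overlap through the vehicle library of mouse 4 (log2 fold change 0.44, standard error 0.10, adjusted p = 0.0126, higher in 4 of 4 mice). Ndrg1, a stress and differentiation gene, measured 196, 196, 189.6 and 229 CPM with vehicle and 149.5, 151, 151 and 177 CPM with IPFc. Every IPFc library was below every vehicle library, and in both groups mouse 4 was highest (log2 fold change -0.38, standard error 0.08, adjusted p = 0.00667).

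In the epithelial IPFc libraries 12 of 24 fibroblast markers were higher as well, and after subtraction of fibroblast RNA Egln3 was the 1 member left. Without mouse 1 or without mouse 2 the number of members called was also 1. In the fibroblast fraction IPFc raised 1 member, Slc2a1, against 0.305% of 18048 genes called higher and 0.144% lower. Slc2a1 measured 232, 217 and 249 CPM with vehicle and 335, 329, 367 and 355 CPM with IPFc. All 4 IPFc libraries lay above the 3 vehicle libraries (1.50-fold, log2 fold change 0.59, standard error 0.11, adjusted p = 0.0216). The call was lost when mouse 2, 3 or 4 was left out, with log2 fold changes from 0.54 to 0.65 over all settings tried. Between the fractions the IPFc response was called different for 0 of 35 members (background 0.229%) by edgeR's test. At an unadjusted p under 0.05 in that test were 13 members, beside 1296 of all 18364 genes. DESeq2 called 1 member, and its share over all genes was not computed.

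TGF-β alone moved most of the genes in the epithelial fraction, where 20 of the 35 were called lower and 8 higher (background 20.1% lower and 21% higher of 18024 genes). The members' median log2 fold change was -0.48, and that of all genes 0.03. All 3 transporters and 13 of the 17 enzymes fell. Car12, a membrane carbonic anhydrase of epithelia, fell furthest, from 2.73, 4.29, 3.29 and 1.10 CPM with vehicle to 0.537, 0.230 and 0.225 CPM in the TGF-β libraries of mice 2 to 4. The groups did not overlap, mouse 4 was the lowest vehicle library, and the TGF-β values rest on 2 to 11 reads per library (log2 fold change -2.95, standard error 0.39, adjusted p = 2.80e-06). Slc16a3 measured 2.69, 3.44 and 1.91 CPM with TGF-β, below every vehicle library given before (log2 fold change -1.94, standard error 0.20, adjusted p = 8.77e-08). Ndrg1 measured 58.3, 64.0 and 64.0 CPM with TGF-β, against a lowest vehicle value of 189.6 CPM (log2 fold change -1.68, standard error 0.09, adjusted p = 1.87e-11). For these 3 genes the decrease was seen in 3 of 3 mice with both libraries.

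Of the enzymes, Ldha fell from 2828 ± 69.1 to 1001 ± 57.0 CPM (log2 fold change -1.47, adjusted p = 1.68e-09) and Gapdh from 3875 ± 381 to 1466 ± 54.4 CPM (log2 fold change -1.37, adjusted p = 4.92e-10). The other enzymes that fell were Aldoc (-0.96), Eno1 (-0.80), Pkm (-0.78), Aldoa (-0.77), Hk1 (-0.76), Pfkl (-0.72), Tpi1 (-0.66), Pgam1 (-0.65), Pfkp (-0.48), Pgk1 (-0.48) and Gpi1 (-0.37), with log2 fold changes in brackets. Slc16a1 fell by 0.75 and Slc2a1 by 0.39 on the log2 scale, and Pfkfb4 and Higd1a were also called lower, with log2 fold changes of -0.82 and -0.85.

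The 8 genes that rose were Eno2, Adm, Pfkfb3, Pfkm, Egln3, P4ha1, Ankrd37 and P4ha2. Their number is near the share of all genes called higher (21%) and says nothing particular of the members. Eno2 measured 39.0, 35.0 and 58.2 CPM with TGF-β, above all 4 vehicle values given before (log2 fold change 1.82, standard error 0.23, adjusted p = 1.64e-06). Adm measured 2.73, 2.91, 2.67 and 1.86 CPM with vehicle and 9.67, 8.73 and 6.30 CPM with TGF-β. The groups stood apart (log2 fold change 1.73, standard error 0.27, adjusted p = 3.19e-05). Pfkfb3 measured 16.7, 18.9, 21.6 and 21.1 CPM with vehicle and 45.2, 57.4 and 37.7 CPM with TGF-β, again without overlap (log2 fold change 1.22, standard error 0.15, adjusted p = 1.76e-06). Muscle-type phosphofructokinase Pfkm rose by 0.83, Egln3 by 0.72, the collagen prolyl hydroxylase subunits P4ha1 and P4ha2 by 0.54 and 0.41, and Ankrd37 by 0.50 on the log2 scale.

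Eno2, Adm, Pfkm, Egln3, P4ha1 and P4ha2 had higher levels in fibroblast than in epithelial vehicle libraries, and the estimated share of fibroblast RNA was larger in the epithelial TGF-β libraries. With fibroblast RNA subtracted, 19 members were still called lower, Aldoc being the exception (-0.57, adjusted p = 0.137). Of the 8 higher, Pfkfb3 (1.63, adjusted p = 1.82e-05) and P4ha2 (0.48, adjusted p = 0.00480) were still called. Adm had a larger log2 fold change than before but did not pass (1.99, adjusted p = 0.0660). For Eno2 the estimated fibroblast part was larger than the level measured in every TGF-β library. Its fitted log2 fold change (-4.72, adjusted p = 0.355) therefore rests on a group left without reads and is no measure of direction. The log2 fold change of P4ha1 turned to -0.053 (adjusted p = 0.810).

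In the fibroblast fraction TGF-β lowered 8 members and raised 3 (background 12.8% lower and 6.39% higher of 18048 genes), with a median log2 fold change of -0.22 over the members and -0.02 over all genes. Egln3 measured 13.6, 17.4 and 13.9 CPM with vehicle in mice 1, 3 and 4 and 32.2, 29.4, 30.4 and 24.9 CPM with TGF-β in mice 1 to 4. All TGF-β libraries were above the vehicle range (2.02-fold, log2 fold change 1.01, standard error 0.14, adjusted p = 2.72e-05). Ankrd37 measured 9.15, 10.8, 13.3 and 17.3 CPM with TGF-β against the 6.31 to 8.25 CPM of the vehicle libraries, with mouse 4 highest (log2 fold change 0.97, standard error 0.24, adjusted p = 0.00657). Platelet-type phosphofructokinase Pfkp measured 75.9, 82.5 and 76.2 CPM with vehicle and 111, 109, 111 and 110.0 CPM with TGF-β. The 4 TGF-β values were almost the same and lay above all vehicle values (log2 fold change 0.55, standard error 0.11, adjusted p = 0.00170).

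Aldoc, the brain-type aldolase, measured 0.904, 1.46 and 1.26 CPM with vehicle and 0.235, 0.0669, 0.311 and 0.485 CPM with TGF-β. The groups did not overlap, but the TGF-β values rest on 1 to 8 reads per library (log2 fold change -1.90, standard error 0.48, adjusted p = 0.00837). Pfkfb3 measured 21.5, 24.2 and 19.3 CPM with vehicle and 7.82, 11.4, 10.6 and 9.16 CPM with TGF-β, all below vehicle (log2 fold change -1.19, standard error 0.17, adjusted p = 5.95e-05). Ndrg1 measured 63.1, 69.0 and 124 CPM with vehicle, mouse 4 being the highest, and 23.9, 38.9, 43.7 and 46.0 CPM with TGF-β (log2 fold change -1.04, standard error 0.16, adjusted p = 0.000114). Also called lower were Adm (-0.69), Ldhb (-0.68), Pdk1 (-0.61), Ldha (-0.51) and Ero1a (-0.44). The transporter Slc2a1 had a log2 fold change of 0.24 ± 0.11 (adjusted p = 0.164). Ldha fell together with the epithelial markers, all 22 of which were lower. After subtraction of epithelial RNA its log2 fold change was 0.072 (adjusted p = 1.00), and of the 11 members called, Egln3 (0.84) and Pdk1 (-0.83) still passed. Pfkfb3 (-1.43, adjusted p = 0.0557) and Pfkp (0.50, adjusted p = 0.0795) kept fold changes of about their former size without passing. Without mouse 4 the number called was 6.

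Aldoc, Ldha and Ndrg1 were lower with TGF-β in both fractions (15% of the epithelial and 37.5% of the fibroblast list of members called lower), and Ankrd37 and Egln3 were higher in both (25% and 66.7%). The overlap over all genes was not computed. Of all genes, 12.8% were called lower and 6.39% higher with TGF-β in fibroblast libraries, and 20.1% and 21% in epithelial libraries. The response to TGF-β was called different between the fractions for 21 of 35 members, against 27.5% of 18364 genes, whose median difference was 0.21. Relative to the fibroblast response the epithelial one was higher for 7 members, led by Pfkfb3 (difference 2.43, standard error 0.24, adjusted p = 2.14e-08), Adm (2.43) and Eno2 (2.19), followed by Pfkm (0.81), P4ha2 (0.66), P4ha1 (0.59) and Pdk1 (0.53). Pfkfb3 was called in both fractions with opposite signs, and so was Adm. The epithelial response was lower for 14 members, led by Gapdh (-1.13, standard error 0.16, adjusted p = 5.18e-06), Slc16a3 (-1.11) and Pfkp (-1.01), and in addition Ldha, Pgam1, Pkm, Aldoa, Eno1, Ndrg1, Slc2a1, Pfkl, Tpi1, Hk1 and Pgk1, which differed by between -0.93 and -0.45. Pfkp rose in fibroblast and fell in epithelial libraries. Without mouse 3, 12 members passed this test, and 14 did with the other fraction subtracted.

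**Figure D4:**
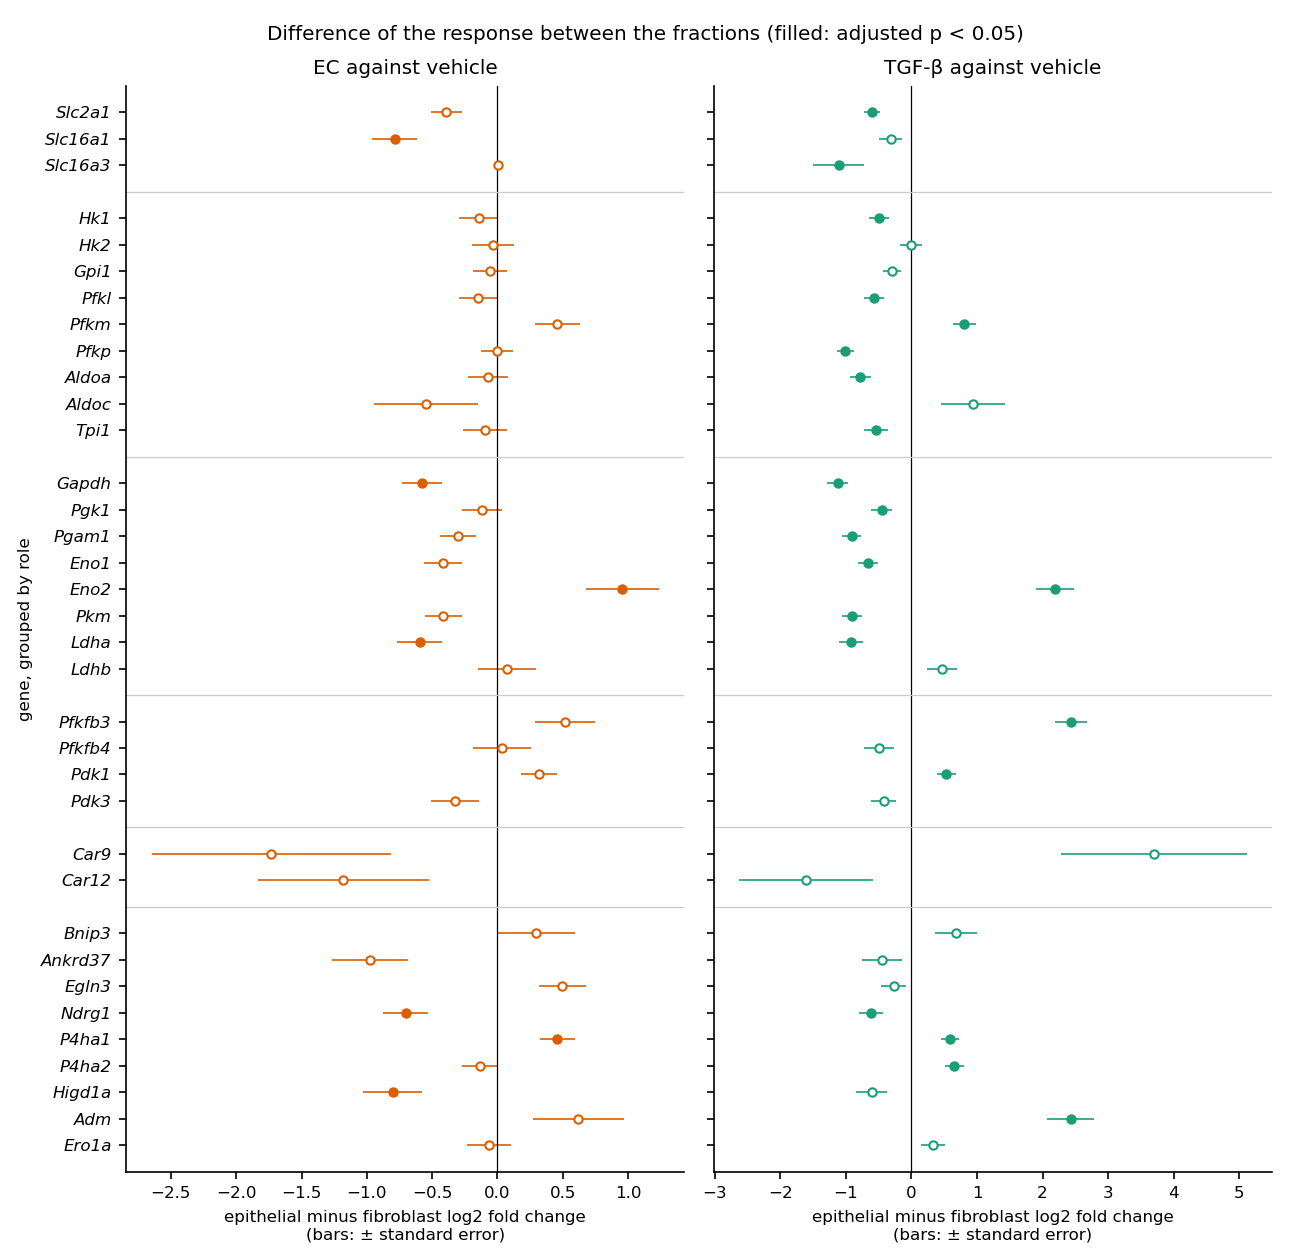
Epithelial minus fibroblast log2 fold change against vehicle of the 35 genes for EC (left) and TGF-β (right), with bars of ± 1 standard error and filled symbols for an adjusted p under 0.05 of the difference (no bar for Slc16a3 with EC, whose difference was too near 0 for a standard error). With EC the called differences run from -0.80 for Higd1a to 0.96 for Eno2, and with TGF-β from -1.13 for Gapdh to 2.43 for Pfkfb3 and Adm.

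Set directly against TGF-β, EC gave higher levels of 26 members and lower levels of 4 in the epithelial fraction (background 43.1% of genes called in either direction). The largest differences were those of Slc16a3 (4.18 ± 0.19 on the log2 scale), Car12 (3.22 ± 0.38) and Ldha (2.02 ± 0.11). The 4 genes lower with EC than with TGF-β were Eno2 (-0.94), Adm (-0.87), Pfkfb3 (-0.75) and Pfkm (-0.64). The other members higher with EC were Ndrg1, Gapdh, Aldoc, Pfkl, Tpi1, Eno1, Aldoa, Slc16a1, Pgk1, Higd1a, Pkm, Pgam1, Bnip3, Pdk1, Pfkp, Slc2a1, Hk1, Ero1a, Gpi1, Egln3, Pfkfb4, Hk2 and Ldhb, from 1.76 to 0.35. In the fibroblast fraction 27 members were higher with EC than with TGF-β and Pfkm was lower (-0.32), with a background of 35.4%. Slc16a3 (3.03 ± 0.27), Aldoc (2.89 ± 0.44) and Car12 (2.71 ± 0.80) led the genes with reads in both groups. Car9 was called as well and has the largest fitted difference, which is not given because it rests on a group without reads, with 0.197, 0.563, 0.243 and 1.71 CPM in the 4 EC libraries and no counted read in any of the 4 TGF-β libraries. Ndrg1, Ldha, Slc16a1, Higd1a, Bnip3, Pfkfb3, Pdk1, Gapdh, Ero1a, Adm, Eno1, Pfkl, Tpi1, Pgk1, Ldhb, P4ha2, Slc2a1, Hk2, Pkm, Aldoa, Hk1, Gpi1 and Pgam1 followed, from 1.82 to 0.32.

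EC and IPFc share IL-1β and TNFα. Both are listed with IL-8, which by the paper was replaced by KC in EC for mouse cells. EC gave higher levels than IPFc for 21 epithelial members (background 4.17% of genes in either direction), with Slc16a3 (2.33 ± 0.14), the carbonic anhydrase Car9 (1.81 ± 0.48) and Bnip3 (0.98 ± 0.16) in front. Car9 itself measured 1.20, 0.959, 1.31 and 1.65 CPM with EC and 0.162, 0.355, 0.411 and 0.570 CPM with IPFc, a low level at which the groups still did not overlap. Pdk1, Pgk1, Pfkl, Ldha, Tpi1, Pfkfb3, Eno1, Aldoa, Higd1a, Hk2, Ndrg1, Pfkp, Ldhb, Gapdh, Pkm, P4ha2, Gpi1 and Pgam1 followed, from 0.73 to 0.35. Among fibroblast libraries 13 members were higher with EC than with IPFc (background 10.4%). These were Slc16a3 (1.95 ± 0.25), Ldha (1.03 ± 0.13), Ndrg1 (0.99 ± 0.14), Higd1a, Gapdh, Slc16a1, Eno1, Pgk1, Tpi1, Pfkl, Pkm, Egln3 and Aldoa. Against TGF-β, IPFc gave 22 members higher and 6 lower in the epithelial fraction (background 37.2%). Higher were Car12 (3.06 ± 0.39), Slc16a3 (1.86 ± 0.20) and Ldha (1.44 ± 0.11), then Aldoc, Ndrg1, Gapdh, Slc16a1, Tpi1, Pfkl, Aldoa, Hk1, Eno1, Higd1a, Pgam1, Pkm, Slc2a1, Pfkfb4, Ero1a, Pgk1, Pfkp, Egln3 and Gpi1. Lower were Pfkfb3 (-1.30 ± 0.15), Eno2 (-0.99 ± 0.22), Adm (-0.87 ± 0.26), Pfkm, P4ha2 and P4ha1. Among fibroblast libraries 16 were higher and 2 lower with IPFc than with TGF-β (background 17.4%). Aldoc (2.27 ± 0.44), Slc16a3 (1.07 ± 0.28) and Slc16a1 (0.93 ± 0.14) led the 16, which also held Ero1a, Ldhb, Ndrg1, Pdk1, Bnip3, Pfkfb3, Ldha, Higd1a, Eno2, P4ha2, Hk1, Pfkl and Slc2a1, and the 2 lower were Egln3 (-0.57 ± 0.12) and Pfkp (-0.32 ± 0.10).

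The library values behind these direct comparisons show where each treatment lay. Ldha in the epithelial fraction was at 3788, 3738, 3826 and 5320.4 CPM with EC, 2908, 2649.8, 2896 and 2739 CPM with IPFc and 1052, 1011 and 939 CPM with TGF-β. The 3 treatments did not overlap, and the EC library of mouse 4 was the highest. Slc16a3 with IPFc was at 11.1, 9.83, 11.3 and 7.65 CPM, below all EC and above all TGF-β libraries. Car12 was at 4.18, 4.65, 3.76 and 1.16 CPM with EC and 4.04, 3.79, 3.15 and 1.30 CPM with IPFc, so that in both groups mouse 4 was lowest, as it was with vehicle, and still above every TGF-β library. Bnip3 with IPFc was at 29.8, 30.7, 47.3 and 49.7 CPM, every value below those with EC.

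Of the genes that were lower with EC than with TGF-β, Eno2 was at 32.8, 34.0, 13.6 and 29.9 CPM with EC, all below its TGF-β libraries. Adm was at 4.82, 8.41, 2.15 and 4.46 CPM with EC and 4.45, 7.70, 3.63 and 3.66 CPM with IPFc, and mouse 2, the highest in each, reached into the TGF-β range of 6.30 to 9.67 CPM. Pfkfb3 was at 24.1, 28.0, 39.7 and 18.0 CPM with EC and 15.9, 17.7, 21.0 and 20.4 CPM with IPFc, and the EC library of mouse 3 lay above the lowest TGF-β library, at 37.7 CPM.

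In the fibroblast fraction Slc16a3 was at 4.23, 5.04, 6.26 and 6.55 CPM with IPFc and 2.03, 2.48, 2.30 and 3.21 CPM with TGF-β, and the 3 treatments lay apart from each other. Ldha was at 3006, 2114, 2124 and 2786 CPM with EC, 1132, 1091, 1190.3 and 1474 CPM with IPFc and 749, 731, 788 and 731 CPM with TGF-β, in the same order as in the epithelial fraction. Ndrg1 was at 120.0, 129, 134 and 172 CPM with EC and 48.5, 60.6, 68.4 and 115 CPM with IPFc, with mouse 4 highest in both and every IPFc library below every EC library. Slc16a1 was at 104, 119.9, 80.1 and 82.0 CPM with IPFc and 48.4, 55.7, 42.1 and 45.6 CPM with TGF-β, without overlap. Aldoc was at 1.78, 0.914, 2.74 and 3.31 CPM with EC and 0.776, 1.08, 1.08 and 2.70 CPM with IPFc, where all libraries were above the TGF-β range although single reads weigh heavily at this level. Car12, from 0, 0.633, 1.16 and 0.663 CPM with EC to 0, 0.201, 0 and 0.121 CPM with TGF-β, had libraries at 0 in both groups. Egln3 with IPFc was at 19.6, 21.3, 21.1 and 20.6 CPM, between vehicle and TGF-β, and Pfkp with IPFc at 93.1, 94.5, 91.4 and 92.0 CPM was likewise above vehicle and below TGF-β. Comparisons within a fraction share libraries and are not independent of each other.

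The levels of several isoenzymes differed between the epithelial and the fibroblast fraction. In the vehicle cultures 12 members were higher and 12 lower in the epithelial than in the fibroblast fraction, against 56% of 18364 genes that differed in either direction. Enolase showed the clearest division. Eno1, the ubiquitous form, stood at 632 CPM per kilobase of transcript in epithelial and 339 in fibroblast vehicle libraries, and Eno2, the neuronal form, at 5.14 and 90.2 on the same scale. Between the fractions Eno1 differed by 0.94 and Eno2 by -4.18 on the log2 scale (adjusted p = 5.90e-08 and 2.06e-12). Eno1 shares almost all of its sequence with Eno1b, which was counted separately at 0.456 to 17.4% of the Eno1 level, so reads of both genes may be divided differently by another counter.

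Lactate dehydrogenase A, the form that favours lactate production, stood at 1781 CPM per kilobase in epithelial and 737 in fibroblast vehicle libraries (difference 1.31 ± 0.14 on the log2 scale), and Ldhb, the heart form, at 64.6 and 94.4 (-0.53 ± 0.18). Muscle phosphofructokinase Pfkm was lower in epithelial cells (-1.87 ± 0.14), the liver form Pfkl differed by 0.14 ± 0.11 (adjusted p = 0.306) and the platelet form Pfkp by -0.08 ± 0.10 (adjusted p = 0.501). Aldoa had the same mean level per kilobase within its spread, 856 and 880.3 (difference 0.00 ± 0.12), and the far scarcer Aldoc was higher in epithelial cells, at 1.79 against 0.434 (2.11 ± 0.39). The hexokinases Hk1 (0.17 ± 0.12) and Hk2 (0.03 ± 0.19) did not pass the test.

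Both lactate transporters, Slc16a1 (0.86 ± 0.17) and Slc16a3 (1.19 ± 0.28), were higher in the epithelial fraction. So were both carbonic anhydrases, Car9 (2.60 ± 0.76) and Car12 (3.49 ± 0.64). The pyruvate dehydrogenase kinases differed in opposite directions, with Pdk1 lower (-1.11 ± 0.14) and Pdk3 higher (0.63 ± 0.18) in epithelial cells, while Pfkfb3 (-0.18 ± 0.18) and Pfkfb4 (0.17 ± 0.19) did not pass. The collagen prolyl hydroxylase subunits P4ha1 (-1.68 ± 0.13) and P4ha2 (-0.67 ± 0.10) were both lower in the epithelial fraction. The same held for Adm, at 1.82 CPM per kilobase in epithelial and 17.5 in fibroblast vehicle libraries (-3.39 ± 0.30). Since each fraction held RNA of the other, these differences are measured between mixtures, and 22 of the 24 calls were still made after subtraction of the other fraction.

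**Figure D5:**
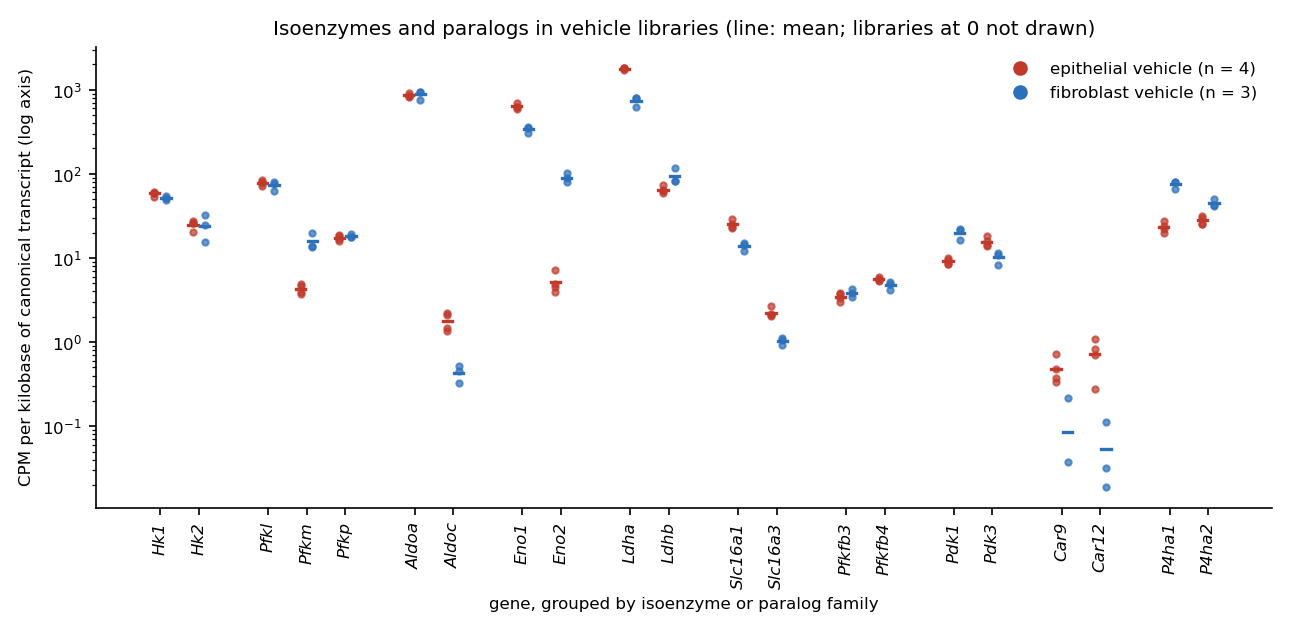
CPM per kilobase of canonical transcript in the vehicle libraries, on a logarithmic axis, for isoenzyme and paralog families, with points for libraries and lines for means (4 epithelial and 3 fibroblast libraries). Eno2 is far lower in epithelial libraries, Ldha and Eno1 are higher there, and Aldoa lies at the same level in both.

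Beyond the 35 genes, the surrounding pathways were read from gene lists, with log2 fold changes in brackets. With EC, the median log2 fold change was 0.03 over the other glycolysis genes, 0.13 over the oxygen sensing genes and 0.10 over the other hypoxia targets in epithelial libraries, where that of all genes was 0.00. In fibroblast libraries the medians were -0.24, 0.23 and 0.36, and that of all genes was -0.02. Of all genes, EC called 1.96% higher and 2.44% lower in epithelial libraries and 4.28% higher and 2.84% lower in fibroblast libraries. Of 19 other tested genes of glycolysis and its control, EC lowered 3 in epithelial libraries, Pdk2 (-0.74), the monocarboxylate transporter Slc16a7 (-0.74) and the glucose transporter Slc2a3 (-0.69). Of 14 genes of oxygen sensing, Hif1a, the α subunit of HIF-1, rose by 0.62 and the prolyl hydroxylase Egln1 by 0.33. Of 28 other hypoxia targets 6 rose, led by the collagen cross-linking enzyme Lox (1.42), the adenylate kinase Ak4 (1.28) and Fam162a (0.72). In fibroblast libraries EC raised 3 of 18 glycolysis genes (Bpgm 0.73, Pgm1 0.67 and Tigar 0.65) and lowered Pdp1 (-0.49). It raised 3 of 14 oxygen sensing genes, which were Epas1 (0.77), Hif1a (0.68) and Egln1 (0.63), and 10 of 28 hypoxia targets, led by Stc2 (1.71), Fam162a (1.36) and Lox (1.00). IPFc raised Pdk4 (0.72) among the glycolysis genes of the epithelial fraction, raised Lox (1.41), Bhlhe40 (0.67) and Plod2 (0.55) and lowered Plin2 (-0.32) among its hypoxia targets, and in the fibroblast fraction raised Lox (0.92). The shares of all genes called with IPFc were 2.57% higher and 1.53% lower in epithelial and 0.305% higher and 0.144% lower in fibroblast libraries.

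TGF-β raised 7 and lowered 4 of the 19 other glycolysis genes in epithelial libraries. The medians over the same 3 lists were -0.12, 0.01 and 0.37, beside 0.03 for all genes. Shares of the lists stand against 21% of all genes called higher and 20.1% called lower in these libraries, so that counts near such shares say nothing particular of a list. Pdk4 (3.08), the muscle enolase Eno3 (2.11) and Hkdc1 (1.79) rose most, and Slc2a3 (-3.66), Pdp2 (-1.05) and Pgm1 (-0.58) fell most. Of the oxygen sensing genes Arnt2 (2.24) and Cited2 (0.67) rose and Epas1 (-0.88) and Egln2 (-0.52) fell. Of the 28 hypoxia targets 15 rose, led by Lox (4.26), Tmem45a (2.80) and Plod2 (1.66), and 5 fell, led by Ak4 (-1.40), Stc2 (-1.37) and Tfrc (-0.92). Lox and Plod2 act in the cross-linking of collagen, and fibroblast markers were higher in the same libraries. In fibroblast libraries, where 6.39% of all genes were called higher and 12.8% lower, TGF-β raised 4 and lowered 4 of the glycolysis genes, with Slc2a3 (-5.92) and Slc16a7 (-3.74) lowest, lowered Epas1 (-1.80), and raised 8 and lowered 3 hypoxia targets. Among these Vegfa (1.50), Lox (1.36) and Ddit4 (1.22) rose most, and the transferrin receptor Tfrc (-1.59), Stc2 (-1.49) and Vldlr (-1.07) fell most.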

How the data were processed

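RNA was sequenced from the epithelial and fibroblast fractions of the cultures, and the authors deposited raw read counts per gene for each library. Per the labels, reads were trimmed with Trimmomatic 0.30, and DESeq2 1.34.0 was used by the submitters. The labels give GRCm39 and the study's methods GRCm38 patch 6 as the genome. The aligner, the counting tool and its strand setting are not given in the sources used here, so reads shared with pseudogenes or antisense genes cannot be separated. Ero1a is listed under its older symbol Ero1l.

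Counts were scaled by TMM and tested with edgeR 4.0.16 (quasi-likelihood, R 4.3.3, limma 3.58.1) on all genes with a mean count of at least 1, with 1 model per fraction, the mouse as a block and Benjamini-Hochberg adjustment over all genes tested. Fractions and responses were compared in models of all 30 libraries. The mouse numbers of the labels pair the libraries: the deviations of libraries of 1 mouse correlated at 0.264 in epithelial and 0.282 in fibroblast libraries on average. Printed levels are CPM, computed here. Depth, from 5113828 to 20317181 counts per library, limits genes of a few reads most. RNA of the opposite fraction was estimated as the median ratio, to the partner library of the same culture, over marker genes of at least 50 CPM there, with the mean of the group in place of a partner that was not analysed here. Promoter letters were searched with Python 3.11.15. The scripts were tested on simulated data.

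Some results are not reported here. The members and gene lists were chosen with earlier results of these data known. All members called in a treatment comparison are named, and library values are given for the 3 with the largest log2 fold change in each direction. Alternatives were DESeq2 1.42.0 and its size factors, other count filters, fits of only the groups compared or without the block, leaving out each mouse, and subtraction of the other fraction. Nothing says whether cultures of 1 mouse were handled together, and the fibroblasts are 1 line.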

Additional observations from a re-analysis of the deposited data

Results flagged for a closer look

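In sets of 4 libraries, 17 of 209 sets tested (8.13%) had 1 library standing far from the other 3, where chance gives about 1 in 20. Several of them belong to a few libraries. The epithelial EC library of mouse 4 stood high for Pgk1 (1614 CPM) and Ldha (5320.4 CPM), and the fibroblast EC library of mouse 1, the one with the fewest counted reads, for Pgk1 (2056 CPM), Ldhb (232 CPM) and Bnip3 (317 CPM). Mouse 4 was also high for Bnip3 in epithelial vehicle (51.1 CPM), Ndrg1 in epithelial vehicle (229 CPM) and epithelial IPFc (177 CPM), Aldoc in fibroblast IPFc (2.70 CPM) and Eno2 in fibroblast TGF-β (218 CPM). Mouse 3 was high for Slc16a3 (12.6 CPM) and Tpi1 (731 CPM) in epithelial vehicle, Pgam1 in epithelial EC (254 CPM), Slc2a1 in fibroblast EC (429.9 CPM) and Hk1 in fibroblast TGF-β (191 CPM). Mouse 1 was low for Higd1a in epithelial IPFc (42.2 CPM) and Car12 in fibroblast IPFc (0.141 CPM). Without the epithelial EC library of mouse 4, 20 members were called higher with EC in that fraction, and without the fibroblast EC library of mouse 1, 21 were in the fibroblast fraction.

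The response to a treatment differed between the fractions, by the test of the difference itself, for 7 members with EC and 21 with TGF-β. As epithelial minus fibroblast log2 fold change, the values with EC were -0.79 for Slc16a1, -0.58 for Gapdh, -0.59 for Ldha, -0.70 for Ndrg1, -0.80 for Higd1a, 0.96 for Eno2 and 0.46 for P4ha1. With TGF-β they were above 0 for Pfkfb3 (2.43), Adm (2.43), Eno2 (2.19), Pfkm (0.81), P4ha2 (0.66), P4ha1 (0.59) and Pdk1 (0.53). They were below 0 for Gapdh (-1.13), Slc16a3 (-1.11), Pfkp (-1.01), Ldha (-0.93), Pgam1 (-0.91), Pkm (-0.90), Aldoa (-0.78), Eno1 (-0.66), Ndrg1 (-0.62), Slc2a1 (-0.60), Pfkl (-0.57), Tpi1 (-0.54), Hk1 (-0.49) and Pgk1 (-0.45). Estimated RNA shares of the opposite fraction changed with both treatments, and their part in these differences was not tested beyond the subtraction.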

How the results depend on the processing

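Of 956 log2 fold changes of called members recomputed under the alternatives, 818 kept their direction and stayed past the threshold, 134 kept their direction and lost the call, and 4 reversed. All 4 reversals came from subtracting the estimated RNA of the other fraction: Eno2 with IPFc (-4.66) and TGF-β (-4.72) and P4ha1 with TGF-β (-0.053) in epithelial libraries, and Ldha with TGF-β (0.072) in fibroblast libraries. Both values of Eno2 rest on treated groups that the subtraction left without reads, so they are no measure of direction. That subtraction left 9 members called for epithelial EC, 1 for epithelial IPFc, 1 for fibroblast EC, 0 for fibroblast IPFc, 3 for fibroblast TGF-β and 0 for the difference of the EC responses. The members' median log2 fold changes moved less, to 0.35 from 0.40 for epithelial EC and to 0.59 from 0.62 for fibroblast EC. With 1 mouse left out, the members called ranged from 11 to 18 for epithelial EC, 1 to 5 for epithelial IPFc, 26 to 29 for epithelial TGF-β, 7 to 20 for fibroblast EC, 0 to 1 for fibroblast IPFc, 6 to 13 for fibroblast TGF-β, 1 to 2 for the difference of the EC responses and 12 to 23 for that of the TGF-β responses. Without the replicate block for the mouse, they were 13 for epithelial EC, 1 for epithelial IPFc, 14 for fibroblast EC and 0 for the difference of the EC responses. DESeq2 called 11 members for the difference of the EC responses and 1 for that of the IPFc responses, and with no filter on low counts the last was 2. Without the fibroblast EC library of mouse 1, the one with the fewest reads and chosen after seeing the data, 21 members were called for fibroblast EC. The share of all genes called was not computed under any of the alternatives, so the counts of members called have no background beside them. Fits of fewer libraries have fewer residual degrees of freedom, and the part of this or of any other cause in the changed counts was not tested. Depth limits the members of a few reads, Car9, Car12 and Aldoc.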

Other observations

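Of the pathways that take up pyruvate and reducing power, EC called 1 of 24 genes of pyruvate oxidation and the citric acid cycle in epithelial libraries, the pyruvate carboxylase gene Pcx, which was lower (-0.73 on the log2 scale). Of 34 oxidative phosphorylation genes, 0 were called by edgeR's test, and 0 were at an unadjusted p under 0.05, where 2585 of all 18024 genes were. Their median log2 fold change was 0.10, beside 0.00 for all genes. Of 12 genes of the pentose phosphate and serine pathways 1, Shmt2, rose (0.30), and the gluconeogenic Fbp2 rose as well (1.37). In fibroblast libraries EC called none of the 34 oxidative phosphorylation genes, and Fbp2 rose (2.67). Of the 34, 9 were at an unadjusted p under 0.05, beside 3990 of all 18048 genes. Their log2 fold changes lay between -0.03 and 0.72, with a median of 0.24, and the median of all genes was -0.02. Of all genes, EC called 1.96% higher and 2.44% lower in epithelial libraries and 4.28% higher and 2.84% lower in fibroblast libraries. Single calls in lists of this size say nothing particular of a list.

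TGF-β lowered 17 of the 24 pyruvate oxidation and citric acid cycle genes, 25 of the 34 oxidative phosphorylation genes and 8 of the 12 pentose phosphate and serine genes in epithelial libraries. The median log2 fold changes of these lists were -0.38, -0.41 and -0.60, beside 0.03 for all genes tested. Pcx (-1.62), Mdh2 (-0.76) and Ogdh (-0.75) fell most in the first group, Cyc1 (-0.90), Ndufs7 (-0.78) and Uqcrc1 (-0.76) in the second, and Psat1 (-1.16), Tkt (-0.88) and Shmt1 (-0.82) in the third. Of 9 genes of gluconeogenesis and glycogen turnover, 2 rose and 3 fell. Of all genes, 21% were called higher and 20.1% lower. In fibroblast libraries TGF-β lowered 3 of the 24 citric acid cycle genes, Pcx (-0.93), Mpc1 (-0.59) and Suclg2 (-0.52), where 12.8% of all genes were called lower. It called none of the oxidative phosphorylation genes. Of these, 1 was at an unadjusted p under 0.05, beside 5351 of all 18048 genes, and their median log2 fold change was -0.01. Of 8 tested genes of gluconeogenesis and glycogen turnover 1 rose and 3 fell there. Epithelial RNA was estimated at 0.946 to 3.71% of these fibroblast TGF-β libraries against 17.4 to 29.4% of the vehicle libraries, and its part in these values was not tested.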
